A study of Mus musculus with 7 samples.

Results

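The 35 integrin subunit and laminin chain genes on these arrays were examined, out of 18193 genes with a probe set of their own. They were chosen by symbol, as the genes named for an integrin alpha subunit (16 genes), an integrin beta subunit (9 genes) or a laminin chain (10 genes). The rule for the genes used no measured value, but earlier results of these data were known when they were chosen. Where a gene had several probe sets, the brightest on average stood for it. Proteins that bind integrins but are not subunits were left out, and Itga11 and Itgad were not analysed here.

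Integrins are receptors made of 1 alpha and 1 beta subunit that span the membrane and tie the matrix outside the cell to actin or keratin filaments inside it. Laminins are trimers of an alpha, a beta and a gamma chain, and they are the main adhesive protein of basement membranes, the thin matrix sheets under epithelia and around other cells. In the liver, hepatocytes face the blood without a continuous basement membrane, whereas bile duct epithelium rests on a laminin-containing one.

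RNA of 3 kinds of C57BL/6J mouse cells (C57BL/6 in the strain label) was hybridized to 7 Affymetrix mouse arrays. MEFs (mouse embryonic fibroblasts, 4 arrays) came from mid-gestation embryos whose head and internal organs had been removed, were not reprogrammed, and grew in a serum medium. iHepSCs (induced hepatic stem cells, 2 arrays) were MEFs infected with lentiviruses that carry Oct4 and Hnf4a in an SFFV vector, then picked as colonies and expanded as clones in a hepatocyte medium (HEP medium with serum, dexamethasone, nicotinamide, HGF and EGF) on collagen. Replicate 1 was taken at passage 3 (iHepSC-P3) and replicate 2 at passage 20 (iHepSC-P20), so the spread of this group includes passage, and the study took 1 of its clones, iHepSC-C3, into detailed work, while the labels do not name the clone of each array. pHep (primary hepatocytes, 1 array) were isolated from 6-week-old mice by collagenase perfusion, and were not reprogrammed. The labels name HEP medium for pHep too, whereas the study's methods give a short plating on collagen in Williams' medium E with antibiotics and glutamine before RNA was taken. Matrix, medium and time in culture therefore differed between groups, for medium possibly also between iHepSCs and pHep, and their part in any difference cannot be told apart from that of the cell type.

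All values are log2 expression levels as deposited, and a difference of 1 is a 2-fold change. Levels are compared between arrays for 1 gene and never between genes, because each probe set has its own brightness. Summed levels of marker genes are likewise compared only between arrays, and they are weighted towards the brightest probe sets of a list. A gene was called higher or lower when its p-value in a limma fit over all 18193 genes, adjusted by the Benjamini-Hochberg method, was under 0.05. The single pHep array has no spread of its own and borrows that of the other groups. Nothing says that arrays of 1 group came from separate cultures or animals, so the p-values measure only the spread between these arrays, which may be technical.

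MEF replicate 1 stood apart from the other MEF arrays, with a Pearson r across all genes of 0.960 to 0.961 against 0.997 among replicates 2 to 4 (a description, since genes are not independent). The 8 fibroblast markers fell in both iHepSC arrays, where the log2 of their summed level was 9.99 to 10.3 against 15.5 to 16.5 in MEFs. Hepatocyte markers were higher in 8 of 8 genes on the pHep array and in 6 of 8 in iHepSCs, where 14.8% and 18.2% of all genes were. Of 8 endothelial markers, 3 were higher in iHepSCs than in MEFs (37.5%, where 18.2% of all genes were higher). Among them was Cdh5 (8.47 and 8.72 against 5.29 to 5.58), while the defining marker Pecam1 was 4.77 to 5.30 on every array.

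Compared with MEFs, 9 of the 35 genes were higher and 10 lower in iHepSCs, and 16 were not called. This is 54.3% of the genes, where 31.6% of all genes were called (18.2% higher and 13.4% lower). The median difference of the 35 genes was -0.09 and that of all genes 0.01, while the median size of the difference, without its sign, was 0.91 against 0.32. Both iHepSC arrays lay above all 4 MEF arrays for 10 of the genes and below all 4 for 15, against 26.9% and 23.7% of all genes. With the arrays centred on Gapdh, which moved the median difference of all genes to 0.50, the split of the 35 genes was 11 higher and 7 lower. On the pHep array 4 genes were higher and 9 lower than in MEFs (37.1%, where 30.3% of all genes were called, 14.8% higher and 15.5% lower). The pHep array lay above all 4 MEF arrays for 6 genes and below them for 22, against 26.9% and 45.7% of all genes. The counts without MEF replicate 1 were 12 higher and 14 lower in iHepSCs (5638 and 4514 over all genes) and 8 higher and 14 lower in pHep (4917 and 5743).

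**Figure D1:**
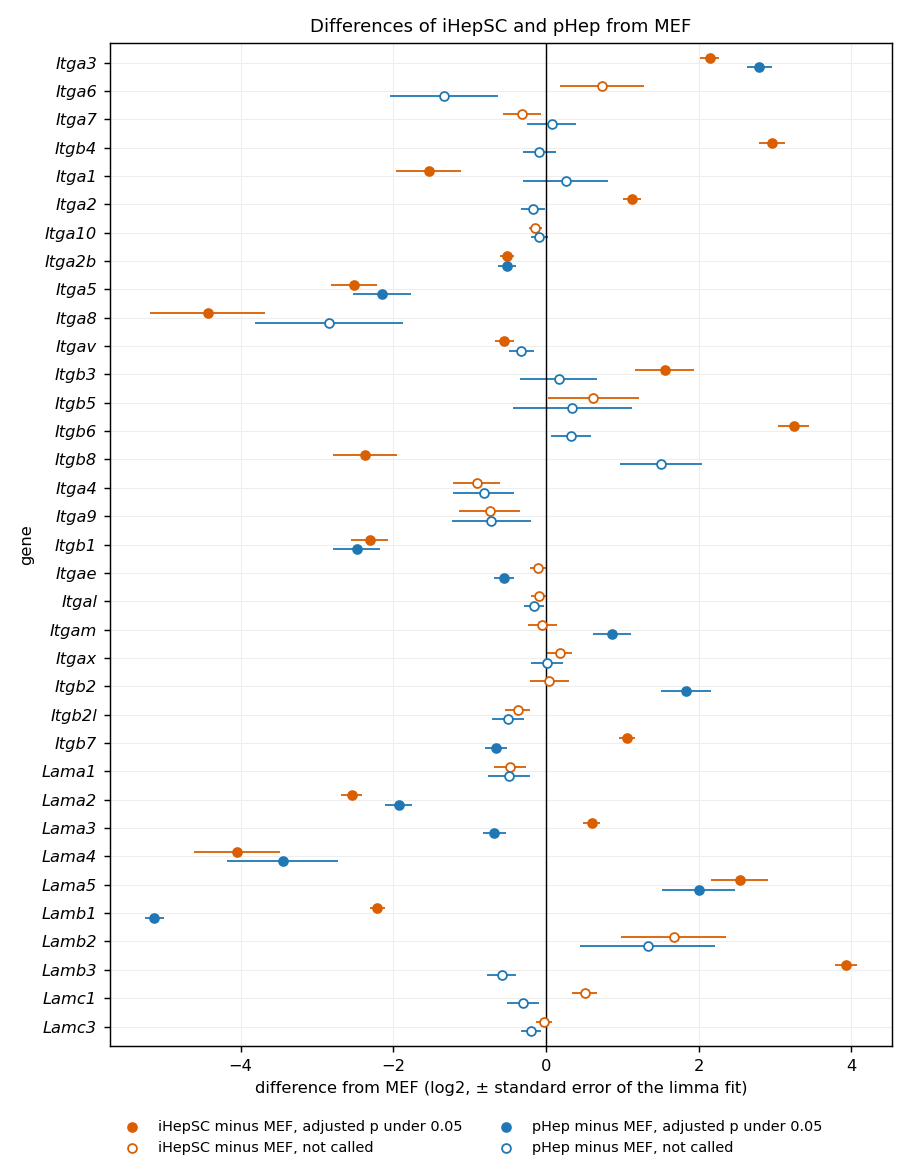
Difference from MEF in log2 units (x axis) for each of the 35 genes (y axis), for iHepSCs (orange, 2 arrays) and for pHep (blue, 1 array) against 4 MEF arrays. Lines are ± 1 standard error of the limma fit, and filled points passed the test. Lamb3, Itgb6 and Itgb4 lay far right of 0 for iHepSCs alone, and Lamb1 lay further left for pHep (-5.13) than for iHepSCs (-2.21).

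Itga3 and Lama5 were higher in iHepSCs and pHep alike, and Itgb4, Itga2, Itgb6 and Lamb3 were higher in iHepSCs than in both other groups while pHep did not differ from MEFs by the test. The promoter sequences of 5 of these 6 genes are shown as the DNA next to the starts of the genes that rose together. Each runs 5′ to 3′ along the gene from 250 bases before to 50 bases after the most upstream start listed by RefSeq, and capitals mark CG dinucleotides, the sites that can carry DNA methylation.
Itga3 (GRCm38.p6, chr11:95076665-95076964, minus strand): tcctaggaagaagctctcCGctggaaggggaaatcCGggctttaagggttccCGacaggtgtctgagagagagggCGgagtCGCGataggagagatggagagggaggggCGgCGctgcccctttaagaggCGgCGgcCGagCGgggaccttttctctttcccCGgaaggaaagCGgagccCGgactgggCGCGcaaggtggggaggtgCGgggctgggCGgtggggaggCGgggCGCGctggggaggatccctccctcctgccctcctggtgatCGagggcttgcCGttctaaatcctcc
Itga2 (GRCm38.p6, chr13:114932051-114932350, minus strand): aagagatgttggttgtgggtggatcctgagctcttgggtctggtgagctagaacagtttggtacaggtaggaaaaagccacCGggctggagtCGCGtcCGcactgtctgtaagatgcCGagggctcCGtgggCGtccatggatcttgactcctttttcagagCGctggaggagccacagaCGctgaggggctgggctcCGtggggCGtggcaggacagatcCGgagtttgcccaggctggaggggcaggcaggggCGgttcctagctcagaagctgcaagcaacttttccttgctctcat
Itgb6 (GRCm38.p6, chr2:60722554-60722853, minus strand): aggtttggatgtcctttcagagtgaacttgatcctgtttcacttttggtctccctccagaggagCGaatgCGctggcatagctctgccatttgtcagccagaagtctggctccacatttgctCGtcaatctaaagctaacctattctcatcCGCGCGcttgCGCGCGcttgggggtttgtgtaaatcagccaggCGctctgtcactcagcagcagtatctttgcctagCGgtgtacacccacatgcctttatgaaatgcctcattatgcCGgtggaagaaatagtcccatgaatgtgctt
Lama5 (GRCm38.p6, chr2:180225810-180226109, minus strand): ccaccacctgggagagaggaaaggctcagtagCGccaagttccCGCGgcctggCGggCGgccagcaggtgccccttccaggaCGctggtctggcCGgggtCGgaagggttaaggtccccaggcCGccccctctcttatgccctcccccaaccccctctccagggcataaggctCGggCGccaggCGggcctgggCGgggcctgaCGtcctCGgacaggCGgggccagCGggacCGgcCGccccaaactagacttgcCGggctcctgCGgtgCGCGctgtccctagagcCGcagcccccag
Lamb3 (GRCm38.p6, chr1:193301744-193302043, plus strand): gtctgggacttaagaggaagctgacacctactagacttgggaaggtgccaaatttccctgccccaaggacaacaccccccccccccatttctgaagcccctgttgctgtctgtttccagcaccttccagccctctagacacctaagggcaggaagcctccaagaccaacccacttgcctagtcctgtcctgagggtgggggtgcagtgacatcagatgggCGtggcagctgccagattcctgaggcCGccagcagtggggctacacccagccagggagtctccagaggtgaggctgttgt

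The promoters of Itga3 and Lama5, the genes that were higher in both hepatic groups, held 24 CG dinucleotides each. Those of Itga2, Itgb6 and Lamb3, which were higher in iHepSCs alone, held 13, 12 and 2, where the median of all 32851 promoters in the table was 7. Genes called lower in iHepSCs ranged as widely, from 1 for Lama2 to 23 for Itga8, 24 for Itgav and 27 for Itgb1. The counts thus did not set the genes that rose apart, and the promoters printed were picked by the genes' own calls. The GC box GGGCGG, searched on both strands, occurred 3 times for Itga3, 4 times for Lama5, once for Itga2 and not in the other promoters printed, and 35.7% of all promoters held it. It also occurred for Itga5, Itgav, Itgb1, Lama2 and Lamb1, which were lower in iHepSCs. The E-box CACCTG occurred once for Itga3 and 2 times for Lama5, and 20.2% of all promoters held it. Among the 26 promoters listed for 23 of the 35 genes, the octamer ATGCAAAT (1.74% of all promoters), the sequence CAAAGTCCA from HNF4 sites (0.475%) and TATAAA (13.6%) were not found. The AP-1 sequence TGANTCA (7.81% of all promoters) was present among these 26 for Itga9, Itgax and a further start of Itga3, and not in the Itga3 promoter printed. These matches describe letters in 300-base windows and say nothing about binding.

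Of the 4 subunits grouped here as laminin receptors (Itga3, Itga6, Itga7 and Itgb4), Itga3 and Itgb4 were higher in iHepSCs, while Itgb1, the beta partner of these alpha subunits, fell and is described further on. Itga3, the alpha subunit that pairs with Itgb1 on basement membrane laminins, measured 8.01, 8.13, 8.22 and 7.94 in MEF replicates 1 to 4, 10.12 in iHepSC-P3, 10.32 in iHepSC-P20 and 10.87 on the pHep array. No iHepSC or pHep value overlapped the MEF values. The gain over MEFs was 2.15 ± 0.12 (log2, standard error of the fit, 4.43-fold, adjusted p = 6.33e-05) in iHepSCs and 2.80 ± 0.16 (6.95-fold, adjusted p = 8.28e-05) in pHep. The other probe sets of Itga3 gave smaller differences in iHepSCs (0.74 and 0.01) and in pHep (0.97 and -0.14).

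Itgb4, the subunit of hemidesmosomes whose long tail connects to keratin filaments, measured 6.13, 5.77, 6.13 and 6.04 in MEFs, 9.19 in iHepSC-P3, 8.76 in iHepSC-P20 and 5.93 on the pHep array. The pHep value lay within the MEF values and both iHepSC values lay far above them. The difference was 2.96 ± 0.17 against MEF (7.77-fold, adjusted p = 6.16e-05) and 3.05 ± 0.24 against pHep (8.25-fold, adjusted p = 0.000436). Its alpha partner Itga6 measured 9.67 in MEF replicate 1 and 11.37 to 11.40 in replicates 2 to 4, 12.00 in iHepSC-P3, 11.40 in iHepSC-P20 and 9.63 on the pHep array. MEF replicate 1 thus resembled pHep for Itga6 and the other MEF arrays resembled iHepSC-P20. Itga6 was not called in any comparison, but without MEF replicate 1 it was lower in pHep than in MEFs (-1.76, adjusted p = 0.000356) and higher in iHepSCs than in pHep (2.07, adjusted p = 0.000415). Beside the gain of Itgb4 in iHepSCs, 3 of 4 cholangiocyte markers (bile duct epithelium) were higher and 1, Sox9, lower than in MEFs. Of all genes, 18.2% were higher and 13.4% lower. Sox9 read 6.38 and 6.06 in iHepSCs, 7.09 to 7.78 in MEFs and 10.90 on the pHep array. The log2 of the summed level of these 4 markers was at least 14.8 in both iHepSC arrays, 8.99 to 10.3 in MEFs and 12.3 on the pHep array. The brightest probe sets in iHepSCs, which weigh most in this sum, were those of the keratins Krt19 (14.43 and 14.07) and Krt7 (13.43 and 13.52). The part of these markers in the result was not tested. Itga7, the laminin receptor subunit of muscle, was between 6.06 and 7.01 on all 7 arrays and was not called.

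Of the 3 collagen receptor alpha subunits, Itga2 rose and Itga1 fell in iHepSCs, and Itga10 (4.90 to 5.11 on all arrays) was not called. Itga2, a collagen receptor of epithelia and platelets, measured 6.44, 6.56, 6.25 and 6.36 in MEFs, 7.61 in iHepSC-P3, 7.46 in iHepSC-P20 and 6.23 on the pHep array. Its iHepSC values were above every other array. Itga2 was higher by 1.13 ± 0.12 than in MEFs (2.19-fold, adjusted p = 0.000875) and by 1.30 ± 0.17 than in pHep (2.46-fold, adjusted p = 0.00375).

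Itga1, the collagen receptor subunit that is also known from hepatocytes, measured 9.61 in MEF replicate 1, 8.25, 8.18 and 8.32 in replicates 2 to 4, 7.17 in iHepSC-P3, 6.94 in iHepSC-P20 and 8.85 on the pHep array. The iHepSC values were the lowest, and the pHep value lay among the MEF values. Its loss in iHepSCs was -1.53 ± 0.43 (2.9-fold lower, adjusted p = 0.0384). That call for Itga1 was lost when MEF replicate 2, 3 or 4 or either iHepSC array was left out (adjusted p = 0.067, 0.0594, 0.0723, 0.149 and 0.216) and with arrays centred on Gapdh (-1.04, adjusted p = 0.131). Without MEF replicate 1, Itga1 was lower in iHepSCs (-1.19, adjusted p = 5.34e-05) and higher in pHep (0.60, adjusted p = 0.00565) than in MEFs.

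The 8 subunits of the RGD receptors, which bind fibronectin, vitronectin and latent TGF-beta through a short Arg-Gly-Asp motif, moved in both directions. In iHepSCs 2 rose and 5 fell, where 18.2% of all genes were higher and 13.4% lower. Itgb6, the epithelial subunit that pairs with Itgav and activates latent TGF-beta, measured 4.51, 4.64, 4.56 and 4.84 in MEFs, 8.22 in iHepSC-P3, 7.55 in iHepSC-P20 and 4.96 on the pHep array. Only the iHepSC arrays stood high. The difference for Itgb6 was 3.24 ± 0.20 against MEF (9.48-fold, adjusted p = 9.14e-05) and 2.92 ± 0.29 against pHep (7.55-fold, adjusted p = 0.00114), and a further probe set gave 3.69 and 3.81.

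Itgb3, the vitronectin receptor subunit of platelets and osteoclasts, measured 7.30, 6.50, 6.15 and 6.06 in MEFs, 8.38 in iHepSC-P3, 7.74 in iHepSC-P20 and 6.67 on the pHep array. The iHepSC values were above all others, by 1.56 ± 0.39 against MEF (2.94-fold, adjusted p = 0.026). A further probe set of Itgb3 gave 0.03. The call for Itgb3 was lost when MEF replicate 2, 3 or 4 or either iHepSC array was left out (adjusted p = 0.0693, 0.0703, 0.0648, 0.187 and 0.0754), while without MEF replicate 1 it was 1.82 against MEF and 1.39 against pHep (adjusted p = 0.000279 and 0.00758).

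Itgb8, another receptor subunit for latent TGF-beta, had the opposite order. It measured 7.69, 6.26, 6.49 and 6.35 in MEFs, 4.20 in iHepSC-P3, 4.46 in iHepSC-P20 and 8.21 on the pHep array. The iHepSC arrays were the lowest and the pHep array the highest, so Itgb8 was 5.17-fold lower in iHepSCs than in MEFs (-2.37 ± 0.42, adjusted p = 0.00703) and 14.7-fold lower than in pHep (-3.88 ± 0.59, adjusted p = 0.00695). The call against MEF was lost without iHepSC replicate 1 (-2.24, adjusted p = 0.0686) or 2 (-2.50, adjusted p = 0.0535). Without MEF replicate 1, Itgb8 was called higher in pHep than in MEFs (1.84, adjusted p = 4.63e-05).

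Itga5, the fibronectin receptor subunit, measured 8.55, 9.55, 9.38 and 9.47 in MEFs, 6.64 in iHepSC-P3, 6.81 in iHepSC-P20 and 7.09 on the pHep array. Both hepatic groups lay below every MEF array. Itga5 was 5.71-fold lower in iHepSCs (-2.51 ± 0.30, adjusted p = 0.00135) and 4.42-fold lower in pHep (-2.14 ± 0.38, adjusted p = 0.0088). Its other probe sets were lower in iHepSCs too (-0.73 to -1.54), but in pHep they read -1.67, 0.58 and 1.04, so the direction for pHep depended on the probe set. The pHep call was lost with the mean of all probe sets (-0.55) and with MEF replicates 2 to 4 averaged as 1 sample (-1.91). The iHepSC call for Itga5 was lost when the test used no _s_at and _x_at probe sets, which can match several transcripts (-1.54, adjusted p = 0.0583).

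Itga8, a receptor subunit of mesenchymal cells, measured 10.72 in MEF replicate 1, 8.15, 8.29 and 8.40 in replicates 2 to 4, 4.61 in iHepSC-P3, 4.31 in iHepSC-P20 and 6.05 on the pHep array. The groups did not overlap and MEF replicate 1 was the highest array. A further probe set of Itga8 gave -2.11 in iHepSCs and -2.17 in pHep against MEF, and 0.05 between iHepSCs and pHep. Of 5 stellate cell markers, 1 was lower in iHepSCs than in MEFs (20.0%, where 13.4% of all genes were lower), and their part was not tested. Itga8 fell 21.6-fold in iHepSCs (-4.43 ± 0.75, adjusted p = 0.00593), and this call was lost without iHepSC replicate 2 (-4.28, adjusted p = 0.0622). In pHep the difference was -2.84 ± 0.97 (adjusted p = 0.0731), which passed the test without MEF replicate 1 (-2.23, adjusted p = 2.39e-05), as did the difference between iHepSCs and pHep (-1.59, adjusted p = 0.000299).

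Itgav, the alpha partner of Itgb3, Itgb5, Itgb6 and Itgb8, measured 13.38, 13.06, 13.08 and 13.18 in MEFs, 12.71 in iHepSC-P3, 12.55 in iHepSC-P20 and 12.85 on the pHep array. In pHep the difference of Itgav from MEFs was -0.32 and was not called, while another probe set gave -2.98. Itgav was slightly lower in iHepSCs (-0.55 ± 0.13, 1.46-fold, adjusted p = 0.0203), while that other probe set gave -2.63. That call for Itgav was lost without MEF replicate 4 (adjusted p = 0.0565), without iHepSC replicate 1 (adjusted p = 0.0737) or 2 (adjusted p = 0.154), and with arrays centred on Gapdh (-0.06, adjusted p = 0.864).

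Itga2b, the alpha subunit of the platelet fibrinogen receptor, was 8.44 to 8.49 on all MEF arrays, 7.89 in iHepSC-P3, 8.02 in iHepSC-P20 and 7.96 on the pHep array, a loss of 0.51 in both hepatic groups (1.42-fold lower, adjusted p = 0.00685 and 0.0209). Of the platelet markers Gp9, Pf4, Ppbp and Treml1, only Ppbp was lower than in MEFs, in both groups, and its part in the Itga2b result was not tested. The iHepSC call was lost without iHepSC replicate 1 (adjusted p = 0.0623) and with arrays centred on Gapdh (-0.02, adjusted p = 0.952), and the pHep call without MEF replicate 2, 3 or 4 (adjusted p = 0.0501, 0.0558 and 0.0549). Itgb5, a vitronectin receptor subunit, was not called. It measured 12.33 in MEF replicate 1, 10.29 to 10.47 in replicates 2 to 4, 11.39 and 11.59 in iHepSCs and 11.21 on the pHep array, and without MEF replicate 1 it was higher in both groups (1.11 and 0.84, adjusted p = 6.64e-05 and 0.001).

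Itgb1, the common beta partner of the laminin, collagen and fibronectin receptors, measured 12.30, 13.04, 13.00 and 13.00 in MEFs, 10.65 in iHepSC-P3, 10.41 in iHepSC-P20 and 10.36 on the pHep array. Every hepatic array was below every MEF array, and iHepSCs and pHep lay side by side. Itgb1 was 4.95-fold lower in iHepSCs (-2.31 ± 0.24, adjusted p = 0.000795) and 5.57-fold lower in pHep (-2.48 ± 0.31, adjusted p = 0.00222). Of its 6 probe sets 5 were lower in iHepSCs by the test. The difference between iHepSCs and pHep was 0.17 ± 0.34 (adjusted p = 0.787).

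Itga4 and Itga9, which bind fibronectin splice variants, Vcam1 and tenascin, were below all MEF arrays in both groups and were not called. Itga4 measured 7.35, 6.29, 6.35 and 6.73 in MEFs, 5.89 and 5.65 in iHepSCs and 5.86 on the pHep array. Itga9 measured 8.15, 7.01, 7.13 and 6.69 in MEFs, 6.36 and 6.66 in iHepSCs and 6.53 on the pHep array, and a further probe set passed the test for iHepSCs (-1.44). MEF replicate 1 was the highest array for both. Without it, Itga4 was called lower in iHepSCs (-0.68, adjusted p = 0.00676) and pHep (-0.60, adjusted p = 0.0321), and Itga9 in iHepSCs (-0.43, adjusted p = 0.0483).

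**Figure D2:**
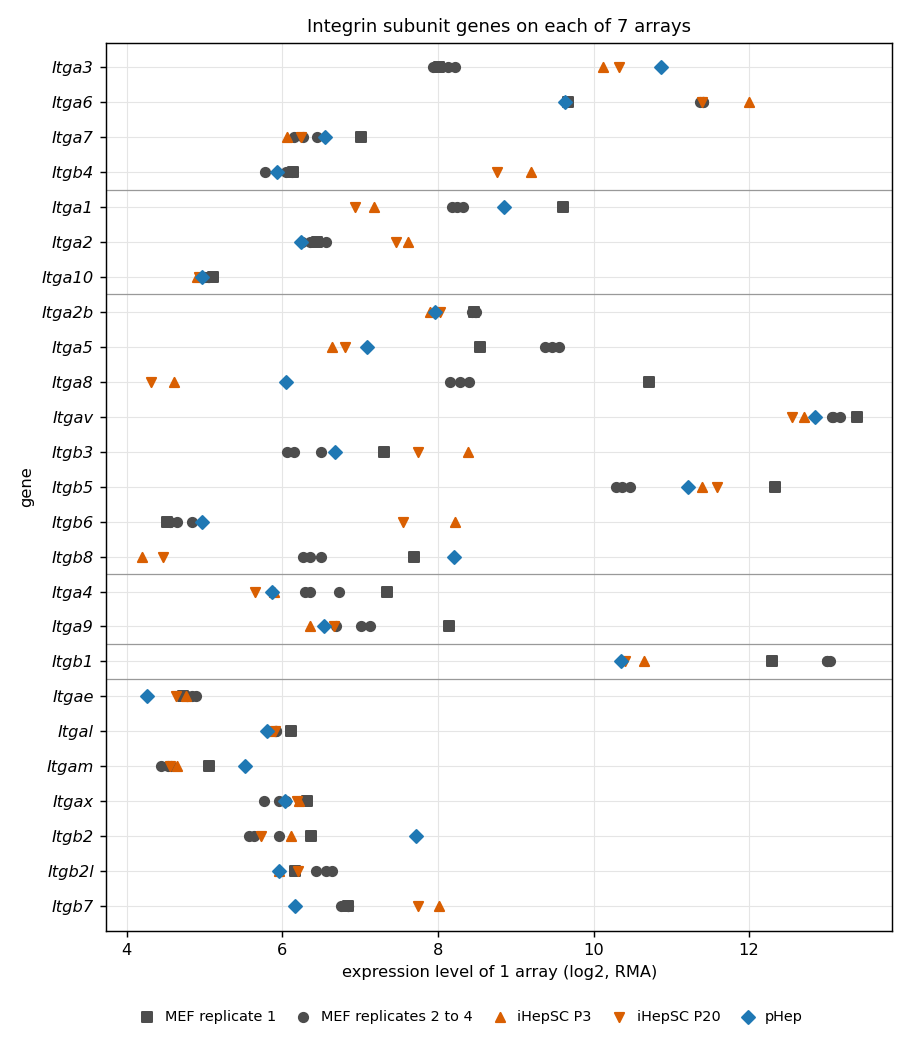
Expression level (log2, x axis) of the 25 integrin subunit genes (y axis, grouped from top to bottom as laminin, collagen and RGD receptors, Itga4 and Itga9, Itgb1, and leukocyte integrins) on each of 7 arrays. MEF replicate 1 is drawn as a square because it stood apart, for Itga8 at 10.72 against 8.15 to 8.40 on the other MEF arrays.

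The 7 integrin subunits known mainly from leukocytes gave 1 call between iHepSCs and MEFs, with Itgb7 higher and the other 6 not called. This is 14.3% of them, where 31.6% of all genes were called. Itgb7, the partner of Itga4 and Itgae in gut-homing lymphocytes, measured 6.84, 6.84, 6.76 and 6.84 in MEFs, 8.02 in iHepSC-P3, 7.75 in iHepSC-P20 and 6.17 on the pHep array. The 3 groups did not overlap, with iHepSCs highest and pHep lowest. Itgb7 was higher than in MEFs by 1.06 ± 0.11 in iHepSCs (2.09-fold, adjusted p = 0.000732) and lower by -0.65 ± 0.14 in pHep (1.57-fold, adjusted p = 0.0172), and the 2 groups differed by 1.72 ± 0.15 (adjusted p = 0.000752). The pHep call for Itgb7 was lost with arrays centred on Gapdh (adjusted p = 0.199) and with MEF replicates 2 to 4 averaged as 1 sample (adjusted p = 0.114). Of 7 neutrophil and lymphocyte markers, 1 was higher in iHepSCs than in MEFs (14.3%, where 18.2% of all genes were higher). The log2 of the summed level of these markers was 8.55 to 8.63 in iHepSCs against 8.38 to 8.44 in MEFs. Their part in the Itgb7 result was not tested.

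Itgb2, the beta subunit of all the leukocyte adhesion integrins of its family, measured 6.36, 5.63, 5.57 and 5.95 in MEFs, 6.11 in iHepSC-P3, 5.73 in iHepSC-P20 and 7.72 on the pHep array. The pHep array alone stood high, by 1.84 ± 0.33 over MEFs (3.57-fold, adjusted p = 0.00872) and 3.47-fold over iHepSCs (adjusted p = 0.02). Itgam, its alpha partner on macrophages and neutrophils, measured 5.06, 4.53, 4.44 and 4.57 in MEFs, 4.64 and 4.56 in iHepSCs and 5.52 on the pHep array (0.87 ± 0.25 over MEFs, 1.83-fold, adjusted p = 0.0423).

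Beside these genes, the log2 of the summed level of the 13 Kupffer cell and macrophage markers was 14.5 on the pHep array, 11.1 to 12.7 in MEFs and 9.88 to 9.95 in iHepSCs. Among them 9 were higher in pHep than in MEFs and none was lower, where 14.8% and 15.5% of all genes were. Vsig4 read 11.57 against 4.96 to 5.51, while Clec4f, Timd4, Ptprc and Adgre1 were not called. The part of the 13 markers in the Itgb2 and Itgam results was not tested. In bulk RNA more cells of a type and more RNA per cell cannot be told apart. The call of Itgb2 in pHep against MEF was lost with MEF replicates 2 to 4 averaged as 1 sample (1.67). The Itgam call was lost when any 1 MEF or iHepSC array other than MEF replicate 1 was left out (adjusted p = 0.0849 to 0.0945), and the call of Itgb2 between iHepSCs and pHep was lost without iHepSC replicate 1 (adjusted p = 0.0598) or 2 (adjusted p = 0.0989) and with arrays centred on Gapdh (adjusted p = 0.115).

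Itgae, an alpha subunit of lymphocytes within epithelia that binds E-cadherin, was 4.72 to 4.89 in MEFs, 4.76 and 4.64 in iHepSCs and 4.25 on the pHep array (-0.55 ± 0.13, adjusted p = 0.0232). The Itgae call was lost without MEF replicate 2, 3 or 4 (adjusted p = 0.0567, 0.0614 and 0.0539), and its other probe set gave -0.05. Itgal (5.81 to 6.12 on all arrays), Itgax (5.76 to 6.32) and Itgb2l (5.95 to 6.63) were not called.

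Among the laminin alpha chains, Lama5 and Lama3 were higher and Lama2 and Lama4 lower in iHepSCs than in MEFs. Lama5, the alpha chain of most adult epithelial basement membranes, measured 8.91, 7.67, 7.88 and 7.66 in MEFs, 10.56 in iHepSC-P3, 10.58 in iHepSC-P20 and 10.04 on the pHep array. All 3 hepatic arrays were above the 4 MEF arrays. Lama5 was 5.81-fold higher in iHepSCs (2.54 ± 0.37, adjusted p = 0.00317) and 4.01-fold higher in pHep (2.00 ± 0.48, adjusted p = 0.0244). The pHep call for Lama5 was lost when any 1 MEF or iHepSC array other than MEF replicate 1 was left out (adjusted p = 0.0565 to 0.0631), and without MEF replicate 1 the difference between iHepSCs and pHep passed the test (0.53, adjusted p = 0.0143). Its other probe sets gave 2.25 and 0.08 in iHepSCs. The iHepSC call for Lama5 was lost with MEF replicates 2 to 4 averaged as 1 sample (adjusted p = 0.0518).

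Lama3, the alpha chain of the epithelial laminin that hemidesmosomes bind, measured 5.79, 5.61, 5.63 and 5.86 in MEFs, 6.25 in iHepSC-P3, 6.39 in iHepSC-P20 and 5.05 on the pHep array. As for Itgb7, iHepSCs were highest and pHep lowest with no overlap. Lama3 rose by 0.60 ± 0.11 in iHepSCs (1.51-fold, adjusted p = 0.00977), was lower by -0.67 ± 0.15 in pHep (1.6-fold, adjusted p = 0.0185), and differed by 1.27 ± 0.16 between them (adjusted p = 0.00332). The iHepSC call for Lama3 was lost without iHepSC replicate 2 (0.53, adjusted p = 0.0904), with the mean of its probe sets (0.31, adjusted p = 0.0571) and with MEF replicates 2 to 4 averaged (adjusted p = 0.0712), and its other probe set gave 0.02. The pHep call was lost with the mean of its probe sets (-0.34, adjusted p = 0.0858), with arrays centred on Gapdh (adjusted p = 0.253) and with MEF replicates 2 to 4 averaged (adjusted p = 0.0798).

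Lama2, the alpha chain of muscle and mesenchymal basement membranes, measured 9.21, 9.24, 9.05 and 9.03 in MEFs, 6.75 in iHepSC-P3, 6.42 in iHepSC-P20 and 7.20 on the pHep array. It was 5.84-fold lower in iHepSCs (-2.55 ± 0.13, adjusted p = 4.36e-05) and 3.81-fold lower in pHep (-1.93 ± 0.17, adjusted p = 0.000566). Lama4, the alpha chain of vascular and mesenchymal basement membranes, measured 10.67 in MEF replicate 1, 8.83, 8.95 and 8.80 in replicates 2 to 4, 5.13 in iHepSC-P3, 5.40 in iHepSC-P20 and 5.86 on the pHep array. The hepatic arrays lay far below all MEF arrays for both chains.

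Lama4 was 16.5-fold lower in iHepSCs (-4.05 ± 0.56, adjusted p = 0.00262) and 10.9-fold lower in pHep (-3.45 ± 0.73, adjusted p = 0.016). The pHep call for Lama4 was not kept with MEF replicates 2 to 4 averaged as 1 sample (-3.90). Beside the lower levels of Lama2 and Lama4, 8 of 8 fibroblast markers were lower in iHepSCs and 7 of 8 in pHep, where 13.4% and 15.5% of all genes were. The part of these markers was not tested. The difference between iHepSCs and pHep was not called for Lama2 (-0.62 ± 0.19, adjusted p = 0.0811) or Lama4 (-0.60 ± 0.80, adjusted p = 0.673), and both passed the test without MEF replicate 1 (adjusted p = 0.0238 and 0.0141). On the second probe set of Lama4 the difference between iHepSCs and pHep had the opposite sign (0.54). Lama1, the alpha chain of early embryonic basement membranes, was 5.50 to 6.20 in MEFs, 5.25 and 5.33 in iHepSCs and 5.28 on the pHep array and was not called. It was called lower in iHepSCs without MEF replicate 1 (-0.32, adjusted p = 0.0359).

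Among the beta chains, Lamb3 was higher and Lamb1 lower in iHepSCs than in MEFs. Lamb3, the beta chain that joins Lama3 in epithelial laminin, measured 5.04, 5.34, 5.48 and 5.24 in MEFs, 9.13 in iHepSC-P3, 9.28 in iHepSC-P20 and 4.69 on the pHep array. Only the iHepSC arrays were high. Lamb3 was 15.2-fold higher in iHepSCs than in MEFs (3.93 ± 0.15, adjusted p = 1e-05) and 22.8-fold higher than in pHep (4.51 ± 0.21, adjusted p = 4.52e-05). The pHep value lay below the MEF values (-0.58 ± 0.19, adjusted p = 0.0623), and without MEF replicate 1 this passed the test (-0.66, adjusted p = 0.00391).

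Lamb1, the beta chain of mesenchymal and embryonic laminins, measured 12.83, 12.68, 12.74 and 12.67 in MEFs, 10.51 in iHepSC-P3, 10.53 in iHepSC-P20 and 7.60 on the pHep array. The 3 groups formed separate steps, with MEFs highest and pHep lowest. Lamb1 was 4.62-fold lower in iHepSCs (-2.21 ± 0.09, adjusted p = 1.66e-05) and 34.9-fold lower in pHep (-5.13 ± 0.12, adjusted p = 4.76e-06) than in MEFs, and 7.57-fold higher in iHepSCs than in pHep (2.92 ± 0.13, adjusted p = 4.46e-05). Of its other probe sets, 2 gave -2.19 and -2.72 in iHepSCs and 1, dim on every array, gave 0.11.

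Lamb2, the beta chain of adult basement membranes, was not called. MEF replicate 1 (10.35) sat with the iHepSC arrays (10.25 and 10.45) and the pHep array (10.01), away from MEF replicates 2 to 4 (8.29, 8.06 and 8.02). Without that array Lamb2 was higher in iHepSCs (2.23, adjusted p = 4.75e-06) and in pHep (1.89, adjusted p = 4.04e-05) than in MEFs. Of the gamma chains, Lamc1, which is shared by most laminins, measured 9.82, 9.46, 9.30 and 9.44 in MEFs, 9.94 and 10.08 in iHepSCs and 9.20 on the pHep array. The iHepSC values of Lamc1 were the highest and the pHep value the lowest, with 0.51 ± 0.16 against MEF (adjusted p = 0.0593) and 0.81 ± 0.23 against pHep (adjusted p = 0.0619). Without MEF replicate 1 both passed the test for Lamc1 (adjusted p = 0.00105 and 0.00207), and its other probe set had the opposite sign against MEF (-0.47). Lamc3 (6.00 to 6.30 on all arrays) was not called.

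**Figure D3:**
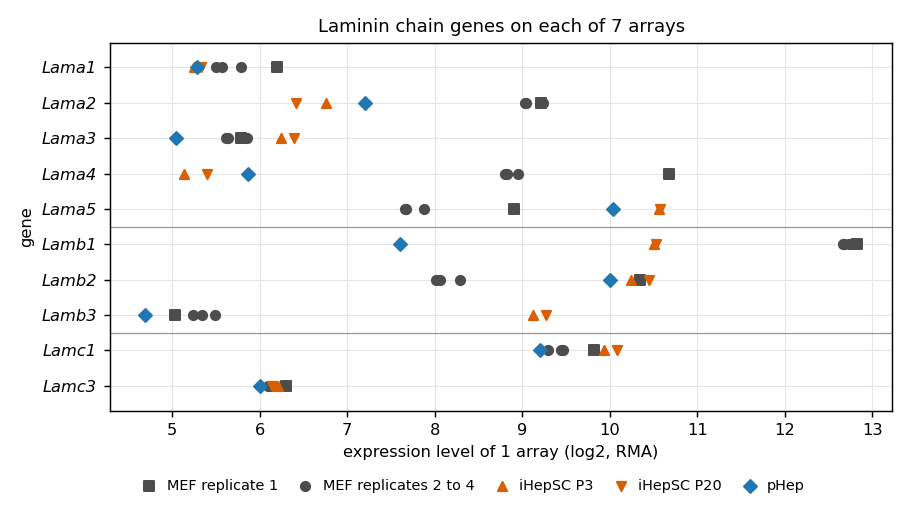
Expression level (log2, x axis) of the 10 laminin chain genes (y axis, alpha, beta and gamma chains from top to bottom) on each of 7 arrays. The iHepSC arrays of Lamb3 lay at 9.13 and 9.28 with all other arrays at 5.48 or below, and the square of MEF replicate 1 lay among the hepatic arrays for Lamb2.

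The direct comparison of iHepSCs with pHep gave 7 genes higher in iHepSCs, namely Itgb4, Itga2, Itgb6, Itgb7, Lama3, Lamb1 and Lamb3, and 2 lower, Itgb8 and Itgb2. These 9 are 25.7% of the 35 genes, where 17.1% of all genes were called (9.26% higher and 7.89% lower). With arrays centred on Gapdh the split was 8 higher and 1 lower, where the median of all genes moved from 0.15 to 0.61. Without MEF replicate 1, which enters this comparison through the estimate of the spread, 12 were higher and 8 lower (4628 and 3144 over all genes). The difference of Itga3 was -0.65 ± 0.17 (adjusted p = 0.0543) and passed the test without MEF replicate 1 (adjusted p = 0.014).

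Lower in iHepSCs and in pHep than in MEFs were Itga2b, Itga5, Itgb1, Lama2, Lama4 and Lamb1, of which Lamb1 alone also differed between iHepSCs and pHep by the test. Both comparisons use the same MEF arrays, so these calls are not independent. On the probe sets used, Itga1, Itga8, Itgav and Itgb8 were called lower in iHepSCs only, and Itgae in pHep only. With the mean of all probe sets, Itga8 and Itgav were called lower in pHep too (-2.50 and -0.94), and Itgae was not (-0.30). Among Itga1, Itga8, Itgav, Itgb8 and Itgae, the difference between iHepSCs and pHep passed the test for Itgb8 alone. Without MEF replicate 1 it also passed for Itga1, Itga8 and Itgae (adjusted p = 6.92e-05, 0.000299 and 0.0186). The 13 genes that no comparison called were Itga6, Itga7, Itga10, Itgb5, Itga4, Itga9, Itgal, Itgax, Itgb2l, Lama1, Lamb2, Lamc1 and Lamc3.

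The 21 genes with several probe sets give a check on the choice of the brightest one. For Itga3, Itga5, Itga8, Itgav, Itgb1, Itgb6, Lama5 and Lamb1, at least 1 further probe set passed the test in the same direction in iHepSCs against MEF, with p-values adjusted over all probe sets. For Itgb3, Itga1, Lama3 and Lama4 the second probe set had the same sign and did not pass, at 0.03, -0.40, 0.02 and -1.55, and with this adjustment the probe set used for Itga1 did not pass either (adjusted p = 0.0506).

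**Figure D4:**
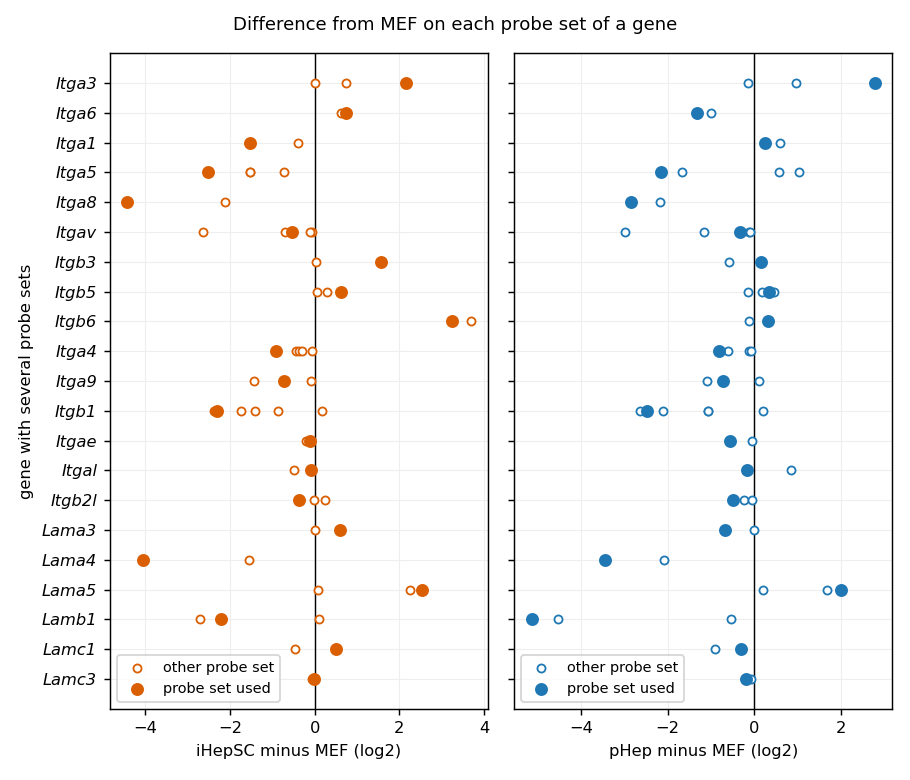
Difference from MEF (log2, x axes) of iHepSCs (left) and pHep (right) on every probe set of the 21 genes that have several (y axis). Filled points are the probe sets used. The open points of Itga5 in pHep lay on both sides of 0, between -1.67 and 1.04.

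Between the passages, 18 of the 35 genes were higher and 17 lower in iHepSC-P20 than in iHepSC-P3, from -0.67 to 0.30, with 1 array each and no test. The subunits Itgb6 (8.22 to 7.55), Itgb3 (8.38 to 7.74) and Itga6 (12.00 to 11.40) differed by 0.5 or more, all lower at passage 20, which is 8.57% of the genes where 4.40% of all genes differed as much. Laminin chains differed by -0.34 to 0.27. For Itgb6 the passages were closer to each other (-0.67) than to MEFs (3.24), and Lamb1 and Lama5 differed between passages by 0.02 and 0.01.

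Within MEFs, replicate 1 differed from the mean of replicates 2 to 4 by at least 1 for 10 of the 35 genes (28.6%, against 12.0% of all genes). It was higher for Itga8 (2.44), Lamb2 (2.23), Itgb5 (1.95), Lama4 (1.82), Itga1 (1.36), Itgb8 (1.32), Itga9 (1.20), Lama5 (1.17) and Itgb3 (1.07), and lower for Itga6 (-1.72). The side on which it lay could depend on the probe set. For Lama4 it was 10.67 against 8.80 to 8.95 on the probe set used and 5.21 against 6.48 to 6.76 on the other. For Lamb1 it was 12.83 against 12.67 to 12.74 on the probe set used and 8.57 against 9.90 to 10.05 on another. Itga3, Itgb4, Lama2 and Lamb1, by contrast, differed by at most 0.15 in this array on the probe sets used.

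**Figure D5:**
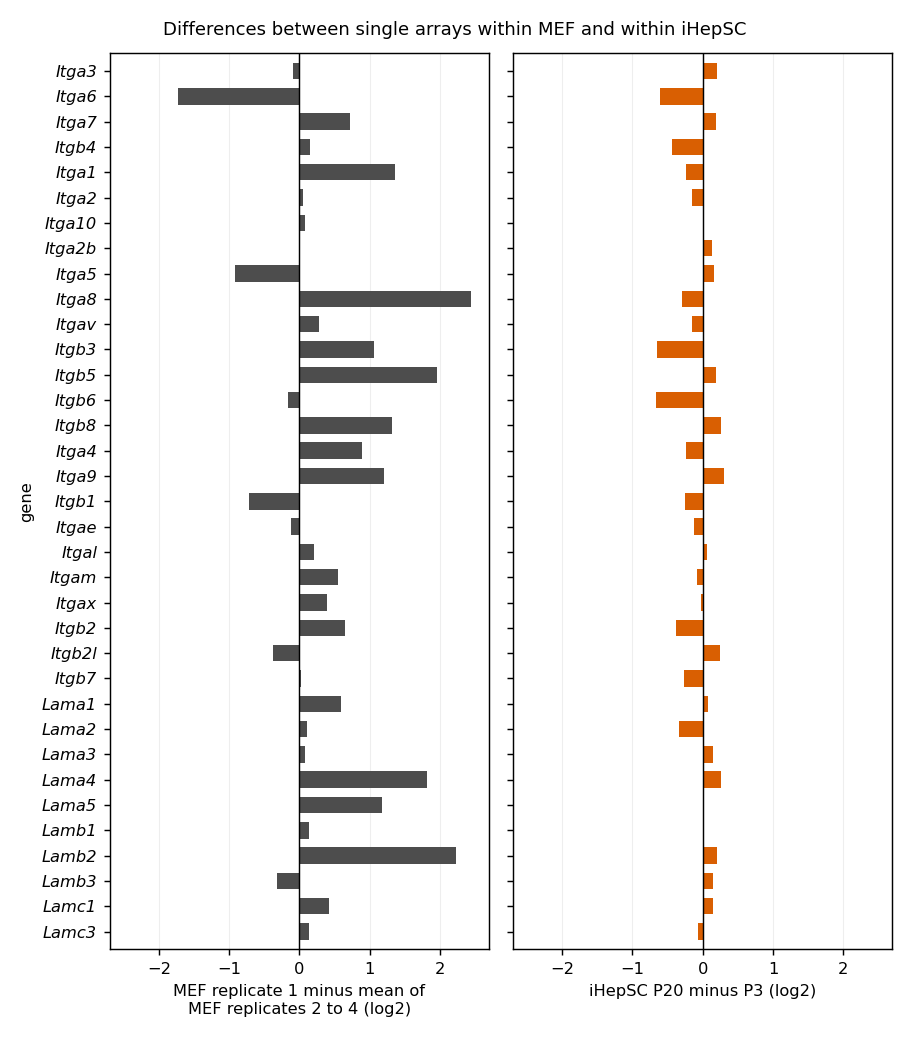
Differences (log2, x axes) between single arrays of a group for each of the 35 genes (y axis): MEF replicate 1 minus the mean of MEF replicates 2 to 4 (left) and iHepSC-P20 minus iHepSC-P3 (right). The bars on the left reach 2.44 for Itga8 and those on the right stay between -0.67 and 0.30.

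Of 26 genes for proteins on the inner side of the membrane that link integrins to actin, 5 were higher and 11 lower in iHepSCs than in MEFs (median -0.31), where 18.2% of all genes were higher and 13.4% lower. In pHep 5 were higher and 10 lower (median -0.30), where 14.8% and 15.5% of all genes were. Tgfb1i1, a paxillin family adaptor of focal adhesions, fell by 4.63 on the log2 scale (adjusted p = 3.54e-05) and Zyx, which marks adhesions under tension, by 3.18 (adjusted p = 0.00169). Tns2, a tensin, rose by 2.12 (adjusted p = 0.00641) and Parvb, a partner of integrin-linked kinase, by 1.34 (adjusted p = 0.000467). The fall of the 8 fibroblast markers stood beside them, and its part was not tested.

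Of 19 basement membrane components and matrix ligands, 2 were higher and 8 lower in iHepSCs (median -0.93), and 3 were higher and 5 lower in pHep (median -0.49). Of all genes, 18.2% were higher and 13.4% lower in iHepSCs, and 14.8% and 15.5% in pHep. Nid1, the nidogen that bridges laminin to collagen IV, measured 12.85 to 13.46 in MEFs, 4.17 and 4.58 in iHepSCs and 12.07 on the pHep array. It was lower in iHepSCs than in MEFs (-8.74 ± 0.20, adjusted p = 1.77e-06) and than in pHep (-7.70 ± 0.29, adjusted p = 2.5e-05). Fbln5, a fibulin of elastic fibres with an RGD motif, was lower in both groups (-7.44 and -6.91). Agrn, a heparan sulfate proteoglycan that binds laminin, and Ntn4, a netrin that binds laminin gamma chains, were higher in iHepSCs (3.38 and 3.22, adjusted p = 0.00828 and 0.00648) and in pHep (3.77 and 3.61, adjusted p = 0.0167 and 0.0132). Vtn, the vitronectin that hepatocytes secrete, was named after its values were seen and read 14.50 on the pHep array against 5.13 to 5.70 in MEFs and 5.23 to 5.24 in iHepSCs.

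Of 12 hemidesmosome genes and other laminin receptors, 2 were higher and 2 lower in iHepSCs and 4 were higher and 3 lower in pHep. The iHepSC calls were 33.3% of this list, near the 31.6% of all genes. In pHep 58.3% were called, where 30.3% of all genes were. The syndecans Sdc4 and Sdc1, which bind laminin through heparan sulfate, were higher in iHepSCs (1.22 and 0.85, adjusted p = 0.00109 and 0.00152), and the sarcoglycans Sgce and Sgcb of the dystroglycan complex were lower (-4.47 and -1.29, adjusted p = 1.77e-06 and 0.000772). The hemidesmosome genes Col17a1, Dst and Plec were not called in iHepSCs, beside the gain of Itgb4. Of 7 cell-surface counter-receptors of leukocyte integrins, 3 were higher and 1 lower in iHepSCs (57.1% called, where 31.6% of all genes were). Cdh1 (E-cadherin, the ligand of Itgae) measured 3.86 to 4.31 in MEFs, 12.78 and 12.83 in iHepSCs and 12.54 on the pHep array (8.75 and 8.49 above MEF, adjusted p = 7.97e-07 and 4.54e-06). F11r, a tight junction molecule, was higher (3.21, adjusted p = 1.68e-05) and Jam2, a junction molecule of endothelium, lower in iHepSCs (-2.43, adjusted p = 7.61e-05).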

How the data were processed

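RNA of MEF (4 arrays), iHepSC (2 arrays) and pHep (1 array) was hybridized to Affymetrix mouse arrays. The deposited values are log2 expression levels of 45101 probe sets that the authors made by Robust Multiarray Analysis (RMA: background correction, quantile normalization and summary per probe set), per the submitters' processing notes and the study's methods. The version of RMA is not given in the sources used here. RMA makes the arrays' distributions alike (array medians 6.28 to 6.33), so levels are relative within an array. No column of values lacked a sample. There are no counts on arrays, so precision is limited by how many arrays there are.

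Probe sets were named by the platform annotation, which can be old: 34945 carried 1 symbol, 932 several and 9224 none, and the last 2 kinds and the 64 control probe sets were left out. Where a gene had several probe sets, the brightest on average across the 7 arrays stood for it, which left 18193 genes and no filter on dim ones. One linear model with a mean for each group was fitted (R 4.3.3, limma 3.58.1, functions lmFit and eBayes with the default prior), with 4 residual degrees of freedom, and Benjamini-Hochberg adjustment over all genes for each of 3 contrasts. It was tested on simulated data. Alternatives were other probe set choices, a filter of 6 on dim genes, renewed quantile normalization, centring on array medians or on the mean of the Gapdh control probe sets, a trended robust prior, leaving out arrays, averaging MEF replicates 2 to 4, the replicate number as a block, a 2-fold floor, and the methods' unpaired t-test.

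The genes, lists and tests were chosen with earlier results of these data known. All 35 genes are accounted for, and up to 4 genes of each further list are named, the 2 largest rises and the 2 largest falls that passed the test in iHepSCs against MEF, with others named as such. Col17a1, Dst, Plec, Vtn and single markers were named after their values were seen. Promoters and coordinates are those of RefSeq on GRCm38.p6 (23 of the 35 genes matched), since the annotation build of the files was not used.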

Additional observations from a re-analysis of the deposited data

Results flagged for a closer look

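Dixon's ratio (the gap of the most extreme array to its nearest neighbour over the range of the group) passed its critical value among the 4 MEF arrays for 11 of the 35 genes. For 10 of them the extreme array was MEF replicate 1. It was high for Itga1 (ratio 0.900), Itga8 (0.904), Itgb5 (0.914), Itgb8 (0.837), Itgal (0.963), Lama4 (0.920) and Lamb2 (0.884), and low for Itga6 (0.984), Itga5 (0.831) and Itgb1 (0.941). For Itgb7 the extreme array was MEF replicate 3 (ratio 1.00), where all 4 MEF arrays lay within 0.08 of each other. By chance about 1 in 20 groups passes this value, and 23.5% of all genes did so here.

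The differences from MEF ran in opposite directions in iHepSCs and pHep for Itgb7, by 1.72 (adjusted p = 0.000752), and for Lama3, by 1.27 (adjusted p = 0.00332). Both were tested by the limma contrast of iHepSCs with pHep, which has 1 pHep array. The pHep side of both was no longer called with arrays centred on Gapdh (adjusted p = 0.199 for Itgb7 and 0.253 for Lama3) or with MEF replicates 2 to 4 averaged as 1 sample (adjusted p = 0.114 and 0.0798).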

How the results depend on the processing

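Of 1706 values of single genes under alternatives, 1558 kept their direction and their side of the threshold (or were called in neither), 108 lost their call, 39 gained one and 1 reversed: Itga5 in pHep against MEF read 0.58 (adjusted p = 0.516) with _x_at and _s_at probe sets left out. Of the called genes, 10 of 19 in iHepSCs against MEF, 4 of 13 in pHep against MEF and 8 of 9 in iHepSCs against pHep kept their call under every alternative other than the replicate block, and 6, 2 and 3 kept it under that too. The causes were not tested.

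Leaving out 1 array gave 7 to 12 of the 35 genes higher and 6 to 14 lower in iHepSCs against MEF, 2 to 8 and 7 to 14 in pHep against MEF, and 7 to 12 and 1 to 8 in iHepSCs against pHep. The highest counts came without MEF replicate 1, and the 3 comparisons keep this order below. Over all genes the counts ranged from 1833 to 5638 higher and 1299 to 4514 lower, 2037 to 4917 and 1843 to 5743, and 909 to 4628 and 878 to 3144. With MEF replicates 2 to 4 averaged as 1 sample, the 35 genes gave 6 higher and 7 lower, 1 and 3, and 7 and 1, and all genes 1517 and 1184, 1240 and 927, and 693 and 780. With arrays centred on Gapdh, the 35 genes gave 11 and 7, 2 and 5, and 8 and 1, and all genes 4557 and 1053, 1525 and 1380, and 1641 and 616. With a 2-fold floor, the 35 genes gave 8 and 8, 3 and 5, and 7 and 2, and all genes 1965 and 1369, 1962 and 1496, and 1096 and 1123. The methods' t-test in iHepSCs against MEF gave 8 and 9 of the 35 genes after Benjamini-Hochberg adjustment, and 2548 and 1932 of all genes.

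The labels share replicate numbers between MEF and iHepSC but nothing says that a number marks a shared culture. The deviations of same-numbered arrays correlated at -0.22 and -0.21 (2 pairs), and those of MEF replicate 1 and iHepSC replicate 2 at 0.22. The deviations of the 2 iHepSC arrays mirror each other, so these values are not separate. They cannot decide whether arrays were paired, and the iHepSC replicate number is also the passage. With the replicate number as a block, the 35 genes gave 4 higher and 3 lower, 1 and 1, and 3 and 0 in the 3 comparisons, and all genes 845 and 682, 465 and 315, and 189 and 259. Beside that 0 from limma, 8 of the 35 genes were higher and 3 lower in iHepSCs than in pHep at an unadjusted p under 0.05. Of all 18193 genes, 2961 passed it in either direction. No other tool was run on this comparison.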
